A study of Mus musculus with 12 samples.

Results

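Ribosome biogenesis genes were followed in intestinal stem cells (ISCs) of mice exposed to restraint or to corticosterone. The set held 40 genes out of 47729 genes in the count table. They were chosen by name for their role in making ribosomes, with earlier results of these data known. All 40 were found in the table, and each had at least 404 counts in every library. By role, 5 genes serve transcription of ribosomal DNA, 5 belong to small nucleolar ribonucleoprotein particles (snoRNPs) or assemble them, 14 build the small subunit, 12 build the large subunit, and 4 encode abundant proteins of the nucleolus.

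Ribosomes are made in the nucleolus, where RNA polymerase I (Pol I) copies ribosomal DNA into a long precursor RNA. Guide particles with small nucleolar RNAs (snoRNAs) modify and help to cut this precursor, and separate sets of assembly factors then fold it into the small and the large subunit and release them to the cytoplasm. The work takes up much of the energy of a growing cell, and cycling crypt cells of the intestine carry large nucleoli.

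RNA was sequenced from ISCs sorted as the brightest green cells (Lgr5-EGFP-hi) of the small intestine, in 12 libraries of 4 groups with 3 libraries each. Every mouse carried *Lgr5-EGFP-IRES-CreERT2*, a knock-in that makes the green protein and a drug-inducible Cre from the locus of *Lgr5*, and mice were 8 to 10 weeks old. CRS mice were restrained within an exposure of 1 day, for 3 h a day in the study's chronic procedure. Ctrl mice were not restrained, and in that procedure controls go without food and water for as long as the restrained mice do. Vehicle mice received an intraperitoneal injection of 20% sulfobutylether-β-cyclodextrin, and CORT mice received corticosterone, the main glucocorticoid of the mouse, at 5 mg/kg in that solution over 1 day. The CRS libraries carry the numbers 1+2, 3 and 4+5+6, and the joined numbers read as pools of mice. The EGFP knock-in is known to be silent in part of the crypts, so the sorted cells stand for the crypts that express it. P-values here measure the spread between the libraries of a group, and the labels do not say how each library was drawn from mice.

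Counts per library added up to between 15934907 and 17135770 in Ctrl and CRS, to between 16465961 and 31280267 in Vehicle, and to between 29426183 and 69533214 in CORT in all, with CORT the deepest group. Levels of a gene across libraries are given as CPM, counts scaled to the effective size of the library. The summed CPM of 6 stem cell markers, *Lgr5* and *Olfm4* among them, lay between 10616 and 13854 in all 12 libraries, with 1 of 6 called lower in CRS and 3 of 6 in CORT, while blood markers summed to at most 1.72 CPM and stromal or endothelial markers to at most 4.07 CPM. The 3 CRS libraries stood apart by enterocyte markers, whose sum over 6 genes was 1013 CPM in CRS 1+2, 521 CPM in CRS 3 and 1788 CPM in CRS 4+5+6 against 269 to 296 CPM in Ctrl, with 6 of 6 genes called higher. Libraries also differed by *Xist*, the RNA of the silenced X chromosome in females. It was at 709 CPM or more in CRS 4+5+6, Vehicle 5, Vehicle 6, CORT 4 and CORT 5 and at 16.7 CPM or less in the other 7 libraries, among them all of Ctrl. CRS 4+5+6 held *Xist* at 747 CPM beside the Y-linked *Ddx3y* at 16.7 CPM. Both sexes were used in the study, and the labels do not assign them to libraries.

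Levels of different genes were compared only as FPKM, which divides by transcript length. In Ctrl, *Npm1*, a histone and ribosomal protein chaperone, was the most abundant of the 40 genes with 622 ± 35.6 FPKM (SD, n = 3). *Fbl*, the methyltransferase of box C/D snoRNPs, followed with 255 ± 20.8 FPKM and *Ncl*, which binds nascent precursor RNA, with 159 ± 2.04 FPKM, and the ranges of these 3 genes did not overlap each other. At the other end stood *Polr1a*, the largest Pol I subunit, with 8.56 ± 1.26 FPKM, the small subunit factor *Utp20* with 6.68 ± 0.836 FPKM, and *Wdr12*, a partner of Pes1 and Bop1 in the large subunit, with 6.42 ± 1.06 FPKM. Below *Nop56* most neighbours in the order had overlapping ranges, so that most ranks between the extremes could not be told apart. The 40 genes together made up 0.417% to 0.515% of all FPKM in a library.

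**Figure D1:**
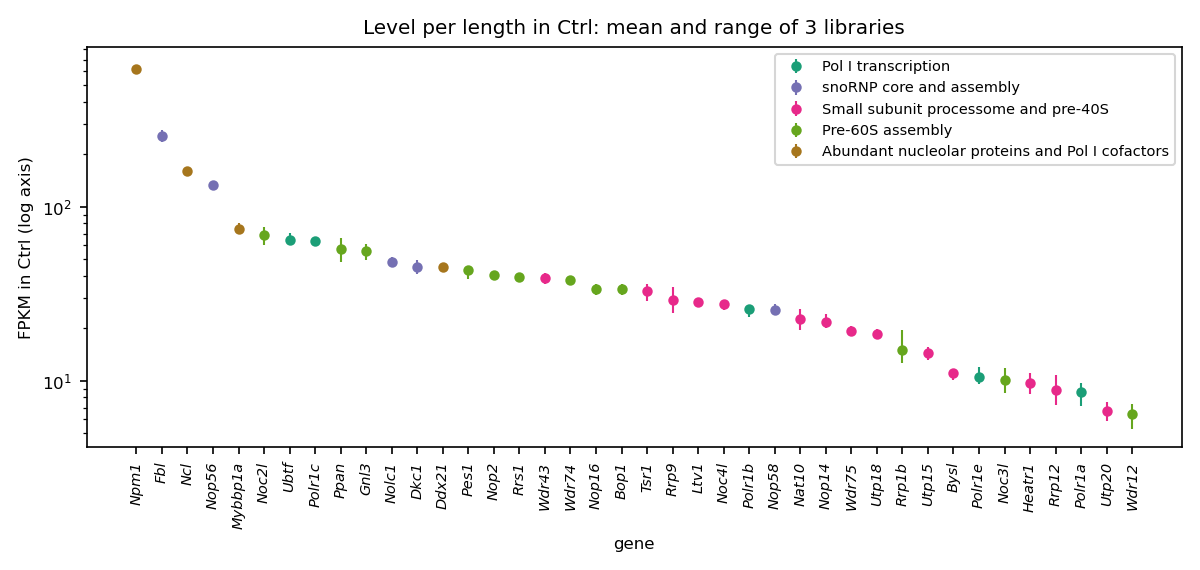
Mean FPKM (log axis) of the 40 genes in the 3 Ctrl libraries, in falling order, with bars from the lowest to the highest library and colours for the role of the gene. *Npm1*, *Fbl* and *Ncl* lie apart at the top, from 622 down to 159 FPKM, and the genes from *Bysl* to *Wdr12* lie between 11.0 and 6.42 FPKM with overlapping bars.

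The comparison of CORT with Vehicle asks how ISCs respond to corticosterone within an injected group. Ribosome biogenesis genes were lower after corticosterone: 11 of 40 fell (27.5%) and 0 rose in edgeR at an adjusted p under 0.05. Of all 14656 genes tested, 4.5% were called lower and 3.64% higher, 8.13% in all, and of the 6846 genes at least as abundant as the lowest of the 40, 6.92% were called lower. *Rrs1* and *Nop2*, both of the large subunit pathway, fell most clearly, and *Bysl* and *Rrp9* led the small subunit genes. In size the changes were moderate, with a median log2 fold change of −0.24 over the 40 genes against 0.014 over all genes tested, and none of the 40 passed 2-fold, where 1.87% of all genes were called with over 2-fold. Log2 fold changes were below 0 in 37 of 40 genes, where 47.9% of all genes tested were. In bulk RNA, fewer cells of a kind and less RNA per cell cannot be told apart.

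The libraries did not overlap, with every CORT library below every Vehicle library, in 24 of 40 genes (13.0% of all genes tested), and the reverse held for 1, *Npm1* (15.7% of all genes tested). At an unadjusted p under 0.05, 26 of the 40 were lower (12.1% of all genes) and 1 was higher (11.2%). Leaving out a library cost calls: 7 genes were called lower without Vehicle 3, 5 without Vehicle 6, 4 without Vehicle 5, 3 without CORT 5, and 2 without CORT 2 or without CORT 4. Calls over all genes tested, in either direction, also fell from the main 1192 of 14656. They were 1003 of 15066 without Vehicle 3, 843 of 15061 without Vehicle 6 and 797 of 15074 without Vehicle 5. They were 680 of 15034 without CORT 5, 780 of 15111 without CORT 2 and 503 of 14993 without CORT 4. *Rrs1* and *Nop2* were called in all 6 of these fits. *Rrp9* was called in 3, *Nolc1* and *Bysl* in 2, *Heatr1*, *Tsr1* and *Rrp1b* in 1, and *Rrp12*, *Polr1b* and *Ppan* in 0. Over 16 alternatives, *Polr1b* lost its call in 12, *Ppan* and *Rrp1b* in 10 and *Rrp12* in 9.

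**Figure D2:**
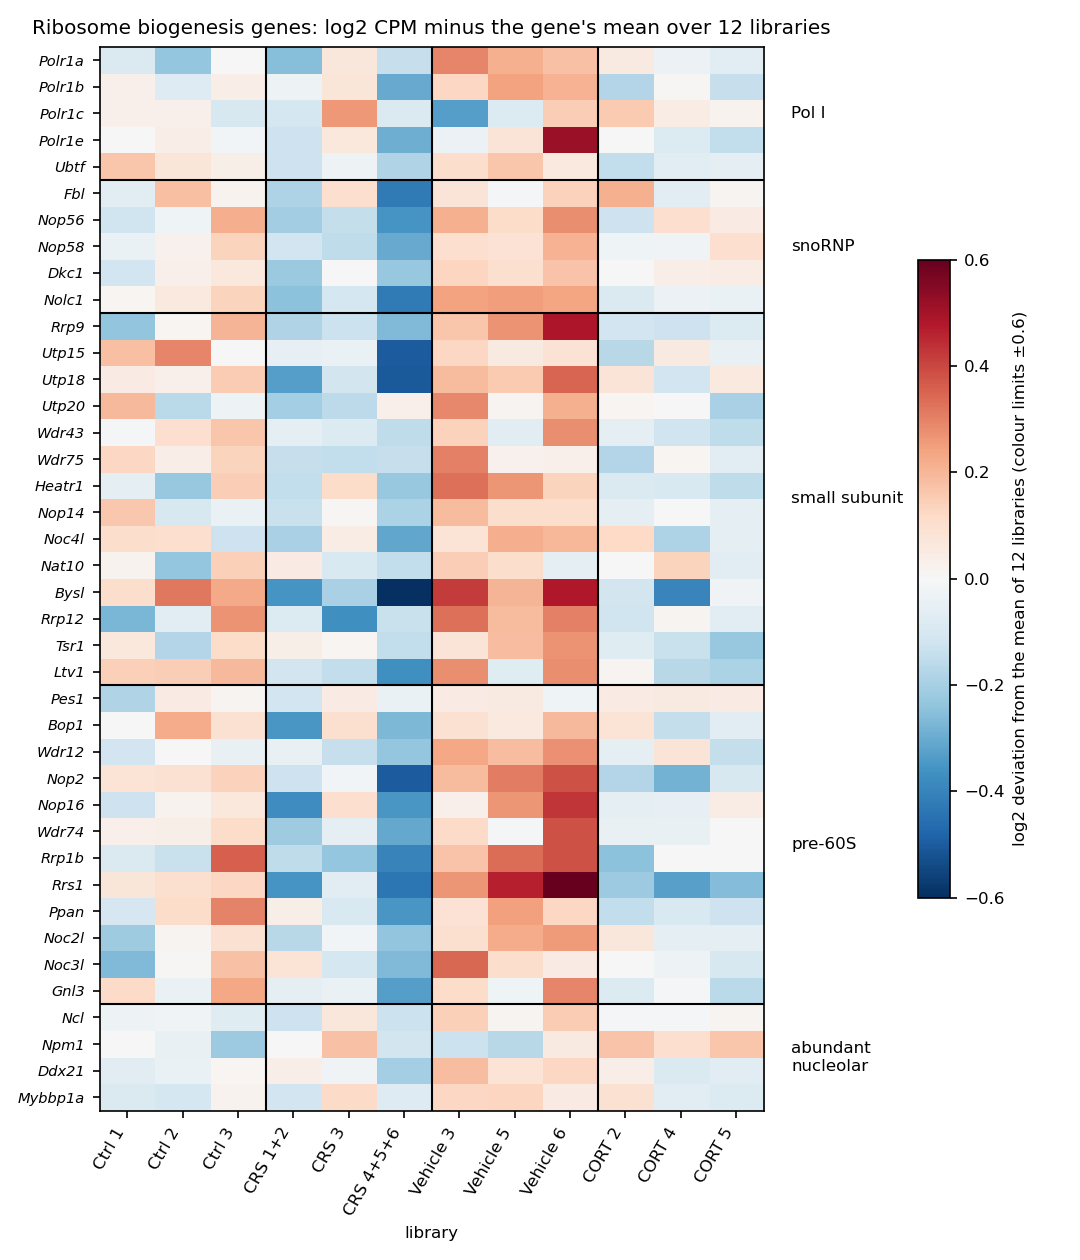
Log2 CPM of each of the 40 genes (rows, ordered by role) in each of the 12 libraries (columns), as the difference from the mean of that gene over all 12 libraries, with red above and blue below the mean. The 3 Vehicle columns are mostly red with medians between 0.11 and 0.21, and CRS 4+5+6 is mostly blue with a median of −0.27.

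Of 12 large subunit assembly genes, 4 fell with corticosterone and 0 rose, with a median log2 fold change of −0.26. *Rrs1* (chr1:9545408-9547455, plus strand, mm10), which helps to bring 5S RNA and its proteins into the large subunit precursor, was at 100.4, 116 and 130.4 CPM in Vehicle and at 71.9, 66.7 and 69.7 CPM in CORT. All CORT libraries lay well below the lowest Vehicle library, and also below the 3 Ctrl libraries at 87.9, 89.4 and 91.3 CPM. *Rrs1* fell by 40.8%, a log2 fold change of −0.76 (SE 0.096, adjusted p = 0.00208). *Nop2* (chr6:125131909-125144753, plus strand), a methyltransferase of large subunit ribosomal RNA, was at 122, 132 and 139.5 CPM in Vehicle and at 94.7, 88.1 and 100.3 CPM in CORT. Here too the groups were separate, and Ctrl lay between them at 113, 114 and 118 CPM. Its log2 fold change was −0.50 (SE 0.083, adjusted p = 0.00697).

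*Rrp1b*, a nucleolar factor of large subunit assembly, was at 70.01, 78.4 and 80.9 CPM in Vehicle and at 52.5, 61.9 and 62.0 CPM in CORT, separate groups with a log2 fold change of −0.40 (SE 0.095, adjusted p = 0.0321). Ctrl reached into both ranges, from 56.7 to 79.7 CPM. *Ppan*, which takes part in maturation of large subunit RNA, lay between 98.0 and 109 CPM in Vehicle and between 83.2 and 86.6 CPM in CORT (log2 fold change −0.30, SE 0.074, adjusted p = 0.0391). *Wdr12*, a partner of *Pes1* and *Bop1* in a complex that is needed to process large subunit RNA, missed the threshold with a log2 fold change of −0.29 and an adjusted p of 0.0545. Its partners had smaller values, with −0.18 for *Bop1* and 0.0028 for *Pes1*, whose libraries overlapped, at 145, 146 and 145 CPM in CORT and from 138 to 146 CPM in Vehicle. *Gnl3*, nucleostemin, a GTP-binding protein of stem and dividing cells, had a log2 fold change of −0.24 with an adjusted p of 0.153, and *Noc2l* one of −0.23 with an adjusted p of 0.105.

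In the small subunit pathway all 14 genes had log2 fold changes below 0, and 5 fell. *Rrp9*, a protein of the U3 snoRNP that guides early cuts of the precursor, was at 56.1, 60.2 and 69.9 CPM in Vehicle and at 46.2, 45.8 and 47.2 CPM in CORT. Vehicle lay higher in every library, and the CORT libraries lay close together. The log2 fold change of *Rrp9* was −0.44 (SE 0.091, adjusted p = 0.0187). *Bysl*, bystin, which acts in late maturation of the small subunit, was at 54.0, 46.5 and 56.3 CPM in Vehicle and at 37.4, 30.7 and 39.8 CPM in CORT. Every CORT library was below every Vehicle and every Ctrl library, and *Bysl* fell by 32.3% (log2 fold change −0.56, SE 0.12, adjusted p = 0.0214). *Bysl* shares 361 exon bases with *Ccnd3* on the opposite strand, and with no statement that strand was used in counting, reads of the pair cannot be told apart there.

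*Heatr1*, which links Pol I transcription to the small subunit processome, was at 89.7, 85.9 and 78.4 CPM in Vehicle and at 67.3, 67.0 and 64.2 CPM in CORT, separate ranges with a log2 fold change of −0.38 (SE 0.078, adjusted p = 0.0196). *Tsr1*, a late factor of the small subunit, was at 127, 137 and 145 CPM in Vehicle and at 115, 109.8 and 103 CPM in CORT, with a log2 fold change of −0.34 (SE 0.077, adjusted p = 0.0259). The groups were separate for *Tsr1* as well, while its Ctrl libraries ran from 107 to 130.3 CPM across both. *Rrp12*, which aids export of subunits from the nucleus, lay between 48.0 and 52.9 CPM in Vehicle and between 38.7 and 42.6 CPM in CORT (log2 fold change −0.35, SE 0.084, adjusted p = 0.0330). *Heatr1* and *Tsr1* also share exon bases with genes of the opposite strand, *Lgals8* over 155 bases and *Srr* over 1240 bases. The other 9 genes of this pathway had log2 fold changes from −0.30 (*Ltv1*) to −0.066 (*Nat10*) and were not called.

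Of the Pol I genes 1 of 5 fell, and of the snoRNP genes 1 of 5. *Polr1b*, which with *Polr1a* forms the catalytic core of Pol I, lay between 109 and 119 CPM in Vehicle and between 88.7 and 101 CPM in CORT, a log2 fold change of −0.31 (SE 0.078, adjusted p = 0.0381). That call was lost in each of the 6 fits that left out a library. *Polr1a* had a log2 fold change of −0.26 with an adjusted p of 0.0575, and *Polr1c*, which Pol I shares with RNA polymerase III, one of 0.13 with overlapping groups. *Nolc1*, a chaperone that carries snoRNPs, was at 218, 220.0 and 218 CPM in Vehicle and at 174, 180.3 and 179.6 CPM in CORT. Both groups were tight and far apart, with a log2 fold change of −0.32 (SE 0.066, adjusted p = 0.0194). The snoRNP core itself showed less: *Fbl* had a log2 fold change of −0.031, *Dkc1*, the pseudouridine synthase, −0.13, and the box C/D proteins *Nop58* and *Nop56* −0.14 and −0.21.

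None of the 4 abundant nucleolar genes was called. *Npm1* was at 979.7, 953 and 1113 CPM in Vehicle and at 1206, 1149 and 1202 CPM in CORT. It was the only gene of the 40 with all CORT libraries above all Vehicle libraries, with a log2 fold change of 0.20 (SE 0.087, adjusted p = 0.198). *Ncl* had a log2 fold change of −0.13, *Mybbp1a*, a regulator of Pol I transcription, −0.14, and the helicase *Ddx21* −0.19.

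**Figure D3:**
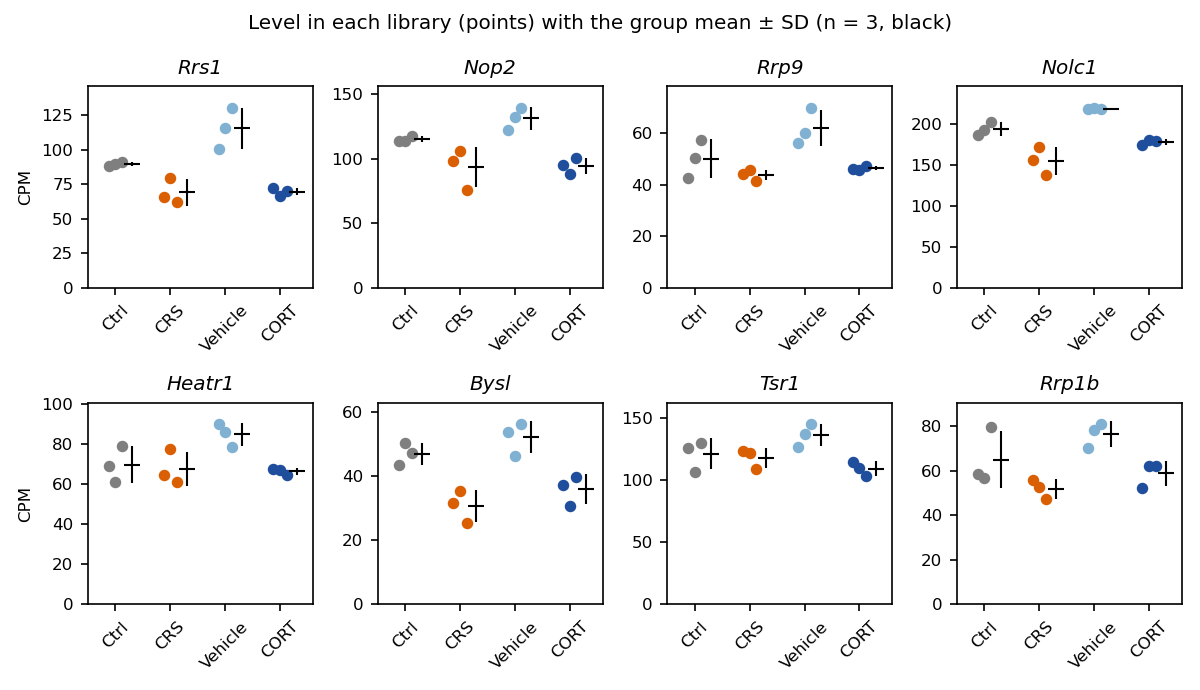
CPM in each library (points) and group mean ± SD (black, n = 3) for the 8 genes with the smallest p in CORT vs Vehicle, on axes that start at 0. In each panel the 3 CORT points lie below the 3 Vehicle points, as for *Rrs1* with 66.7 to 71.9 against 100.4 to 130.4 CPM.

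Promoters were read for the letters CACGTG, the canonical E-box that Myc and related factors can bind, in RefSeq windows (GRCm38.p6) from 250 bases before to 50 bases after each gene start. The letters read alike on both strands. Windows were found for 35 of the 40 genes, not for *Fbl*, *Rrs1*, *Npm1*, *Rrp12* and *Bop1*. CACGTG occurred in 8 of 35 (22.9%) against 2187 of 27025 genes (8.09%), which is a description of the sequence and not of binding. It stood in 2 of the 9 windows of genes that fell with corticosterone, *Nop2* and *Tsr1*, and in 6 of 26 windows of the others. The 250 bases upstream of *Nop2* (chr6:125131633-125131882, plus strand) are shown because *Nop2* kept its call in every fit, with CACGTG in capitals 60 bases before the start.
Nop2 upstream: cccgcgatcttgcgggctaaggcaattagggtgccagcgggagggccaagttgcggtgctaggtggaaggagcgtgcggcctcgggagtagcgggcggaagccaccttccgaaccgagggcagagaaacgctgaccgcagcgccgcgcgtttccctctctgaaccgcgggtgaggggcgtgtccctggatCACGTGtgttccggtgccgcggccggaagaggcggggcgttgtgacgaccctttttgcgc

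Windows of 30 bases around the same letters in 5 other genes allow the flanks to be compared. They lie at chr11:74898092-74898121 (*Tsr1*, plus strand), chr11:93885769-93885798 (*Utp18*, minus strand), chr10:13193092-13193121 (*Ltv1*, minus strand), chr11:3963965-3963994 (*Pes1*, plus strand) and chr17:71616220-71616249 (*Wdr43*, plus strand), and each is written in the direction of its gene.
Tsr1: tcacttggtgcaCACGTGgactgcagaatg
Utp18: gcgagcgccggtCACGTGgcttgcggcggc
Ltv1: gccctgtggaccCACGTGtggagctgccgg
Pes1: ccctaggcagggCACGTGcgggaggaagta
Wdr43: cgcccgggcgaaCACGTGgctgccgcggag
*Tsr1* fell with corticosterone, *Utp18* and *Ltv1* were among the lowest values after restraint without being called, and *Pes1* had log2 fold changes near 0 in both comparisons.

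Other values moved with this comparison. The CORT and Vehicle groups held the same mix by *Xist*, with 1 low and 2 high libraries each. In the low pair, CORT 2 and Vehicle 3, with 1 library each, the median log2 difference of the 40 genes was −0.22. In the high libraries, with 2 in each group, it was −0.24. Genes of a library are not replicates of it, so these medians are descriptions. With *Xist* as a term in the fit the same 11 genes were called, where 1259 of 14656 genes were called in either direction. Total counts also differed between the groups, as given above. Paneth cell markers summed to 104.7 to 118 CPM in CORT and 185 to 213 CPM in Vehicle (4 of 6 lower), enterocyte markers to 362 to 437 against 249 to 305 CPM (1 of 6 called higher, *Slc5a1* with a log2 fold change of 0.81, and 2 of 6 above 0), and markers of dividing cells to 1156 to 1241 against 877 to 987 CPM (2 of 6 higher). Their part in the result was not tested.

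Restraint was compared with the unrestrained Ctrl group to ask whether stress itself has a like effect. Ribosome biogenesis genes lay mostly lower in CRS, but 0 of 40 were called in either direction by edgeR, where 0.59% of 13722 genes tested were called lower and 1.3% higher (1.89% in all). Log2 fold changes were below 0 in 35 of 40 genes (50.5% of all genes tested), with a median of −0.18 against −0.0028. At an unadjusted p under 0.05, 13 genes were lower and 0 higher, where 6.79% of all genes were lower and 8.39% higher. DESeq2 called 1, *Bysl*, where 616 of 13722 genes were called in either direction, and limma on log2(FPKM + 1) called 0, where 88 of 13133 were. Without CRS 3, edgeR called 5 genes lower (*Bop1*, *Bysl*, *Nolc1*, *Rrs1* and *Utp18*), where 849 of 14196 genes were called in either direction. The 3 CRS libraries lay below the 3 Ctrl libraries in 15 of 40 genes (10.3% of all genes tested) and above them in 0 (10.1%).

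*Bysl* came closest to a call, with 43.5, 50.3 and 47.3 CPM in Ctrl and 31.7, 35.3 and 25.3 CPM in CRS. The groups did not overlap, and its log2 fold change was −0.61 (SE 0.14, adjusted p = 0.0564). *Ltv1*, a factor released late from the small subunit, was at 54.7, 54.8 and 56.8 CPM in Ctrl and at 45.9, 44.7 and 38.4 CPM in CRS (log2 fold change −0.36, SE 0.10, adjusted p = 0.117). *Utp18*, a protein of the processome, was at 51.9, 51.2 and 55.7 CPM in Ctrl and at 39.9, 46.5 and 35.4 CPM in CRS (log2 fold change −0.38, SE 0.12, adjusted p = 0.149). For these 3 small subunit genes CRS 4+5+6 was the lowest library.

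*Rrs1* was at 65.5, 79.8 and 61.8 CPM in CRS, below the tight Ctrl values given above, with a log2 fold change of −0.37 (SE 0.10, adjusted p = 0.118). *Nolc1* was at 186, 192 and 203 CPM in Ctrl and at 156, 172 and 138 CPM in CRS (log2 fold change −0.32, SE 0.096, adjusted p = 0.143). Again CRS 4+5+6 was lowest and CRS 3 highest of the CRS libraries. By role, the median log2 fold change was −0.24 for the large subunit, −0.23 for snoRNP genes, −0.18 for the small subunit, −0.074 for Pol I genes and 0.010 for the abundant nucleolar genes. *Npm1* had the highest value of the 40, 0.11, with overlapping groups.

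**Figure D4:**
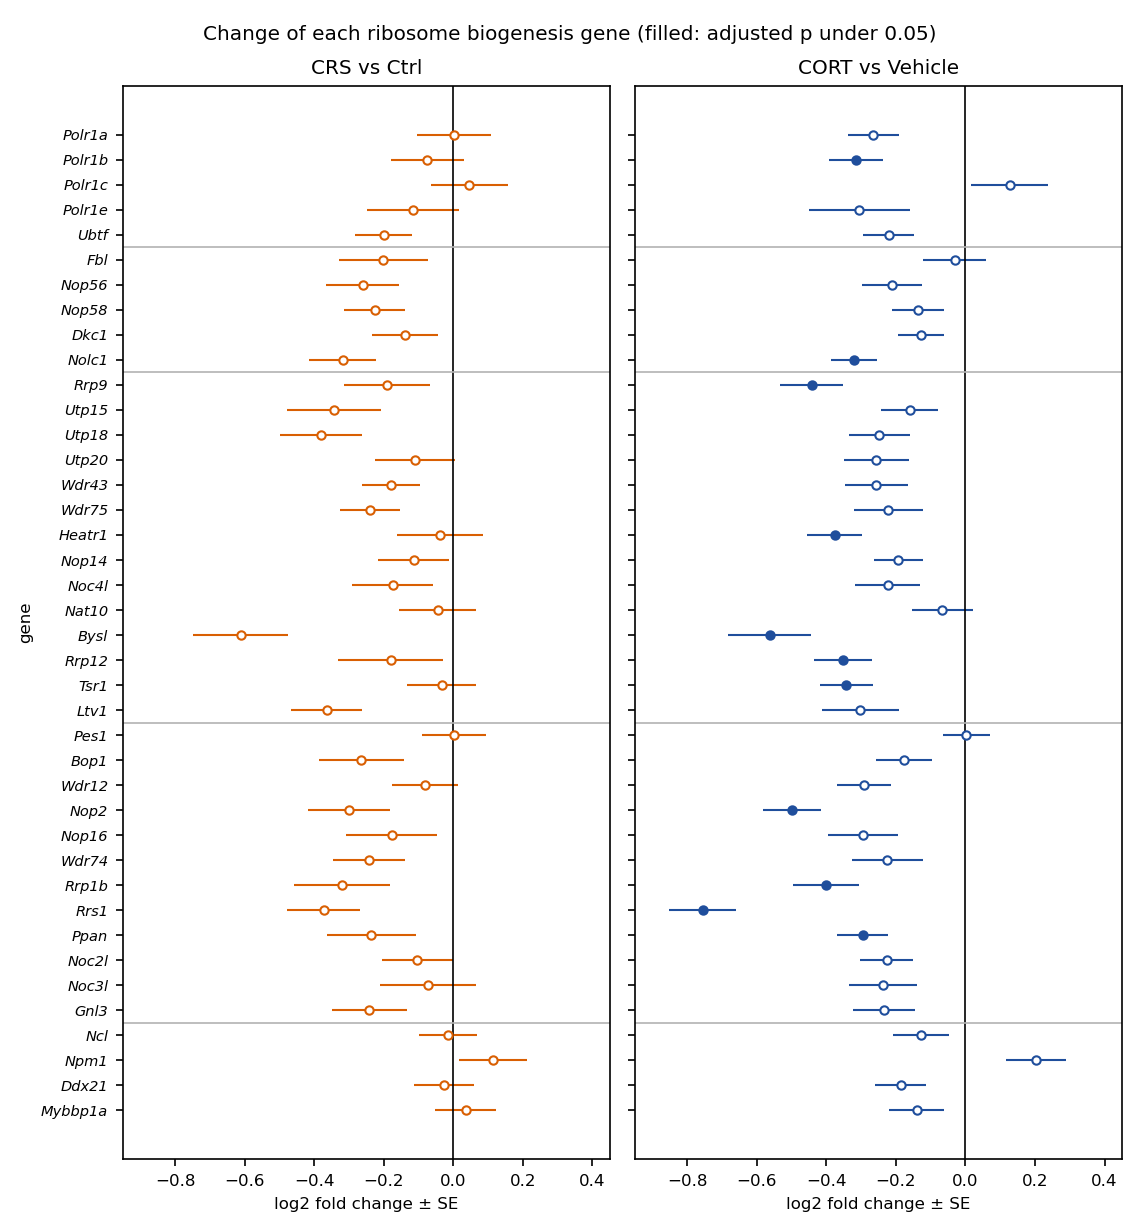
Log2 fold change ± SE of each of the 40 genes, by role from Pol I at the top to the abundant nucleolar genes at the bottom, for CRS vs Ctrl (left) and CORT vs Vehicle (right), with filled points for an adjusted p under 0.05. On the left 35 points lie below 0 and none is filled, and on the right 37 lie below 0 and 11 are filled.

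The CRS libraries differed among themselves. The median deviation of the 40 genes from their 12-library means was −0.034 in CRS 3, −0.12 in CRS 1+2 and −0.27 in CRS 4+5+6, against −0.0032, 0.024 and 0.10 in Ctrl. This is the order of their enterocyte marker sums given above, from 521 CPM in CRS 3 to 1788 CPM in CRS 4+5+6, and CRS 4+5+6 is also the only CRS library with *Xist*. Goblet cell markers summed to 502 to 1448 CPM in CRS and 488 to 610.4 CPM in Ctrl (2 of 6 higher), and markers of dividing cells to 1120 to 1243 against 875 to 927 CPM (3 of 6 higher). The part of these in the result was not tested. Without CRS 4+5+6, log2 fold changes were below 0 in 29 of 40 genes, with a median of −0.12 and 0 calls. In that fit 114 of 14079 genes tested were called in either direction.

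**Figure D5:**
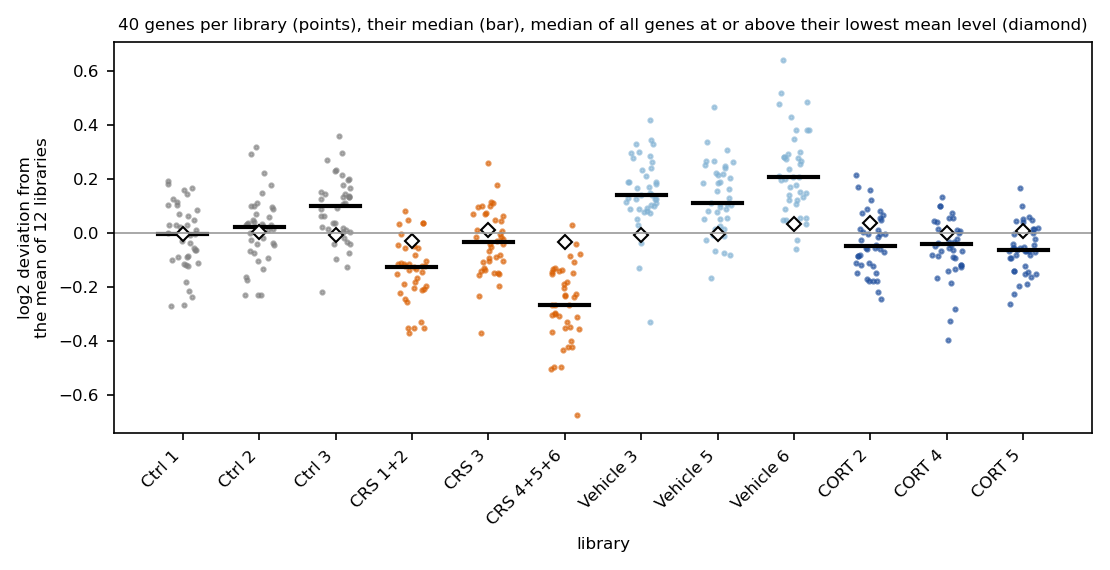
Log2 deviation of each of the 40 genes from its mean over 12 libraries (points, with small sideways scatter), with the median of the 40 (bar) and of all genes at or above their lowest mean level (diamond) in each library. The diamonds stay between −0.032 and 0.038, while the bars run from −0.27 in CRS 4+5+6 to 0.21 in Vehicle 6.

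The control groups themselves were compared, since Vehicle mice were injected and Ctrl mice served as controls of restraint. Ribosome biogenesis genes lay higher in Vehicle, with log2 fold changes above 0 in 38 of 40 genes (50.3% of 13642 genes tested) and a median of 0.15 against 0.0019. No gene of the 40 was called by edgeR, where 0.447% of all genes tested were called higher and 0.352% lower (0.799% in all). At an unadjusted p under 0.05, 10 were higher (6.16% of all genes) and 0 lower (4.93%). DESeq2 called *Rrs1* higher, limma on log2(FPKM + 1) called 0, and edgeR called *Rrs1* when Vehicle 3 was left out. In that order, 329 of 13642, 33 of 13083 and 169 of 13977 genes tested were called in either direction. The 3 Vehicle libraries lay above the 3 Ctrl libraries in 12 of 40 genes (8.51% of all genes tested) and below them in 0 (7.65%).

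*Rrs1* had the smallest p, with a log2 fold change of 0.36 (SE 0.095, adjusted p = 0.136). *Polr1a* was at 81.4, 73.8 and 86.7 CPM in Ctrl and at 106, 100.4 and 97.8 CPM in Vehicle (log2 fold change 0.33, SE 0.089, adjusted p = 0.146). *Wdr12* was at 50.3, 54.4 and 52.8 CPM in Ctrl and at 64.0, 61.8 and 65.7 CPM in Vehicle (log2 fold change 0.28, SE 0.0855, adjusted p = 0.200). These 3 genes did not overlap between the groups. *Heatr1* and *Rrp9* had log2 fold changes of 0.28 (adjusted p = 0.344) and 0.31 (adjusted p = 0.360), and their Ctrl libraries, at 68.8, 60.9 and 79.0 CPM and at 42.4, 50.3 and 57.4 CPM, reached into the Vehicle range.

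This comparison also sets Ctrl libraries that were all low in *Xist* against a Vehicle group with 2 high libraries. In Vehicle 3, the low one, the median log2 difference of the 40 genes from the Ctrl mean was 0.13, a value from 1 Vehicle library. With *Xist* as a term in a fit of all 12 libraries the median was 0.18 (0.15 in that fit without the term). Of other cells' markers, the Paneth cell gene *Mmp7* (log2 fold change 2.04, adjusted p = 0.000183) and the enterocyte gene *Fabp1* (1.91, adjusted p = 0.0183) were called higher in Vehicle, each as 1 of 6 of its list, and 1 of 6 genes of each list was above 0. Paneth cell markers summed to 185 to 213 CPM in Vehicle and 135 to 172 CPM in Ctrl. The part of these in the result was not tested. The Vehicle mean was the highest of the 4 groups in 36 of 40 genes. The Vehicle libraries serve as controls of CORT as well, so the values of these comparisons are not independent and are set side by side here. The mean of CORT was below that of Ctrl in 29 of 40 genes, with a median log2 ratio of −0.068. Neither this count nor that of the highest means was made over all genes. Tested against Ctrl in place of Vehicle, a choice made after these values were seen, CORT had 2 of the 40 genes called lower, *Rrs1* and *Nop2*, and a median log2 fold change of −0.093. Then 32 of 40 genes were below 0 in place of 37. In that fit 1200 of 14268 genes tested were called in either direction. Beside that, the 2 calls do not show an excess of the 40 genes. *Polr1a* (85.7 against 80.6 CPM), *Noc2l* (215 against 213 CPM) and *Wdr12* (52.9 against 52.5 CPM), which lay below Vehicle, had CORT means above those of Ctrl.

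CRS vs Ctrl and CORT vs Vehicle share no library, and 35 of 40 genes were below 0 in both. The share of all genes below 0 in both was not counted, so this is not shown to be particular to the 40. Across the 40 genes the log2 fold changes had a Pearson r of 0.602 and a Spearman rho of 0.411, given as a description, since genes of a library share its depth and makeup. *Bysl* was among the most reduced in both, with −0.61 and −0.56, and *Rrs1* had −0.37 and −0.76. The difference of the responses was tested as an interaction over 12 libraries, restraint minus corticosterone. No gene of the 40 was called, where 0.388% of 14415 genes tested were, and at an unadjusted p under 0.05 3 were higher (7.01% of all genes) and 0 lower (5.47%). DESeq2 and limma also called 0, where DESeq2 called 389 of 14415 genes and limma on log2(FPKM + 1) called 25 of 13918. The smallest p values belonged to *Rrs1* (log2 difference 0.38, SE 0.15, adjusted p = 0.290), *Tsr1* (0.30, SE 0.12, adjusted p = 0.324) and *Heatr1* (0.33, SE 0.15, adjusted p = 0.393). *Polr1a* (0.26, SE 0.13, adjusted p = 0.426) and *Polr1b* (0.24, SE 0.13, adjusted p = 0.507) followed. Each was positive, that is, the log2 fold change against its own control group was lower with corticosterone than with restraint. This sets changes and not levels side by side. A call in CORT and none in CRS thus does not show that a gene responded differently.

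Further genes of the pathway, outside the 40, were counted from lists of the same steps. With corticosterone, 4.5% of all genes tested and 6.92% of genes as abundant as the 40 were called lower. The further small subunit list also held genes of snoRNPs and their assembly, unlike the small subunit role among the 40. Of its 53 genes tested 3 fell (5.66%), a share near that of all genes, and the median was −0.096. They were *Cirh1a* (log2 fold change −0.41), *Ruvbl1* (−0.36) and *Dhx37* (−0.33). Of 50 further large subunit genes 5 fell, led by *Urb2* with −0.62 (SE 0.090, adjusted p = 0.00387), *Nol9* with −0.36 and *Grwd1* with −0.42, and the median was −0.13. Of 16 further Pol I genes 1 was called (6.25%), *Cd3eap*, which encodes a Pol I subunit, with −0.44, and of 21 RNA polymerase III genes 1 (4.76%), *Gtf3c4*, with −0.37, shares that are also near the background. Of the 6 fits that left out a library, *Urb2* was called in 6, *Cirh1a* in 4, *Nol9*, *Ruvbl1* and *Cd3eap* in 2, *Grwd1* and *Gtf3c4* in 1 and *Dhx37* in 0. None of 22 exosome and nuclease genes was called. No gene of these lists rose, and the shares were not tested against that of the 40 genes. After restraint these 5 lists had 0 calls, with medians between −0.15 for large subunit genes and 0.0022 for RNA polymerase III genes.

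*Myc*, a transcription factor known to drive genes of ribosome production, was lower in CRS (190.0 ± 8.60 CPM, n = 3) than in Ctrl (263 ± 25.7 CPM), with a log2 fold change of −0.47 (adjusted p = 0.0332). That call held in 4 of 14 alternatives (adjusted p 0.000213 to 0.171), and of the fits that left out a library only in the one without CRS 3. In CORT *Myc* was at 185 ± 29.4 CPM against 267 ± 70.6 CPM in Vehicle, with a log2 fold change of −0.55 and an adjusted p of 0.112. Of the 12 genes of the Myc network, *Mlxip*, a partner in glucose sensing, rose in both comparisons, by 0.63 and 0.84 on the log2 scale, and *Mxd1*, a repressor at Myc sites, rose by 1.26 in CRS, a call that 7 of 14 alternatives lost. *Mycn* rose by 1.54 from a low level of 4.42 ± 1.48 CPM in Vehicle, and *Mycl* had a log2 fold change of −0.63 in CORT (adjusted p = 0.0228). The *Mycl* call was lost in 4 of 16 alternatives and held in 3 of 6 fits that left out a library. Of 20 nucleotide synthesis genes, *Ctps*, which makes cytidine triphosphate, rose by 1.21 with corticosterone (adjusted p = 0.000251), from 84.5 ± 6.83 to 199 ± 22.8 CPM, and *Umps*, of uridine synthesis, had −0.35 (adjusted p = 0.0268). The *Umps* call was lost in 5 of 16 alternatives and held in 2 of 6 fits that left out a library.

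Several of the 40 genes carry snoRNA genes. In the GENCODE annotation of GRCm38, 8 of 40 had at least 1 snoRNA gene inside their bounds on the same strand, 23 in all, against 279 of 21951 protein-coding genes (1.27%). *Nop56* held 5, *Nop58* 4, and *Wdr43*, *Gnl3* and *Ncl* 3 each. Among the 11 genes that fell with corticosterone *Tsr1* and *Ppan* held 2 each and the other 9 none. Levels of the snoRNAs themselves were not analysed here. Of the 40 genes, 16 share exon bases with a gene of the opposite strand. Pseudogene copies of any type with at least 90% identity over at least 300 bases exist for 11, and their counts came to at most 0.237% of those of the gene and its copies together.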

How the data were processed

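The 40 genes and all lists were chosen with earlier results of these data known. Per the labels, the authors aligned reads to mm10 with HISAT2 2.2.1 and made their values with StringTie 2.2.1, while their methods name featureCounts for counting. Estimated counts, deposited as whole numbers per gene, are not divided by library size. Coverage times transcript length came to a median of 74.9 to 75.0 bases per count in genes with 1 transcript, in every library. The deposited counts thus follow the coverage values and not a count of reads or fragments. Each count stands for about 75 covered bases, and a pair of reads makes several counts. The authors also deposited FPKM, TPM (not used here) and coverage, a signal not divided by library size and used only for that check. No column was left without a sample (0 columns), and 126 symbols occurred more than once.

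Counts were rounded and tested with edgeR 4.0.16 (quasi-likelihood F-test, TMM, filterByExpr, Benjamini-Hochberg over all genes tested) under R 4.3.3, with the 6 libraries that a comparison sets against each other, and 12 for the interaction; a call is an adjusted p under 0.05. The SE is the absolute log2 fold change over the root of F. Groups came from sample titles. The biological coefficient of variation was 18.5% (CRS vs Ctrl), 19.2% (CORT vs Vehicle) and 16.8% (Vehicle vs Ctrl). All 40 genes passed the filter in each comparison. Alternatives were DESeq2 1.42.0, its size factors in edgeR, no filter, at least 10 counts in every library, all 12 libraries in 1 fit, limma 3.58.1 on log2(FPKM + 1) or log2(FPKM + 0.1) for genes with at least 0.5 FPKM in 3 libraries or without that filter, and each library left out; Ctrl in place of Vehicle and a term for *Xist* over 100 CPM were added after the data were seen. The edgeR step was tested on simulated data. All 40 genes could be named, with values in every library for those called (the 8 of smallest p where more were) or the 5 of smallest p, and of each further list the 3 called genes of smallest p per direction, and *Myc*. Copies of the genes were sought with BLAST 2.17.0. FPKM differences are on the log2(value + pseudocount) scale.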

Additional observations from a re-analysis of the deposited data

Results flagged for a closer look

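Outside the 40 genes, *Ctps* of the nucleotide synthesis list differed between the responses to restraint and to corticosterone, with a log2 difference of −0.90 (SE 0.14, adjusted p = 0.0153, edgeR interaction over 12 libraries). *Ctps* was at 81.9 ± 3.64 CPM in Ctrl, 102 ± 11.2 CPM in CRS, 84.5 ± 6.83 CPM in Vehicle and 199 ± 22.8 CPM in CORT (n = 3 each). The difference was called in 9 of 12 fits that left out a library, not without Ctrl 1, Ctrl 2 or CORT 4, and adjusted p ran from 4.76e-06 to 0.0763 over its alternatives.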

How the results depend on the processing

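No paired analysis was possible because the replicate numbers that the compared groups share are fewer than 2. Main counts of genes among the 40 called lower were 11 in CORT vs Vehicle and 0 in CRS vs Ctrl. In CORT vs Vehicle, 15 were called by DESeq2, where 1868 of 14656 genes tested were called in either direction. *Noc2l*, *Polr1a*, *Ubtf* and *Wdr12*, which edgeR did not call, were among them. Calls were 7 by limma without a filter and 2 against Ctrl, and 2 to 7 with a library left out. The median, −0.24, was −0.29 on log2(FPKM + 1), with and without the filter, −0.31 on log2(FPKM + 0.1), −0.093 against Ctrl and −0.27 to −0.21 with a library left out. In CRS vs Ctrl, 1 was called by DESeq2 and 1 with at least 10 counts in every library. In the latter fit 320 of 12349 genes tested were called in either direction. Calls were 2 with all 12 libraries and 0 to 5 with a library left out, and the median was −0.22 to −0.12 in the last. In Vehicle vs Ctrl, 1 was called higher by DESeq2 and 0 to 1 with a library left out, with medians of 0.13 to 0.17. In the interaction, medians were 0.023 to 0.11 with a library left out.

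Over all genes tested, CRS vs Ctrl gave 260 calls, 616 by DESeq2, 46 with no filter, 510 with all 12 libraries, 88, 79 and 27 by limma (pseudocount 1, 0.1, and no filter) and 56 to 849 with a library left out (114 without CRS 4+5+6). CORT vs Vehicle gave 1192, 1868 by DESeq2, 561 by limma without a filter, 1200 with Ctrl in place of Vehicle and 503 to 1003 with a library left out. Vehicle vs Ctrl gave 109, 329 by DESeq2, 33, 25 and 0 by limma in that order, 28 with *Xist* as a term in a fit of all 12 libraries (83 in that fit without the term) and 20 to 169 with a library left out. The interaction gave 56, 389 by DESeq2, 25, 22 and 17 by limma and 12 to 241 with a library left out. The cause of these differences was not tested. No direction reversed for the 11 genes called in CORT vs Vehicle, while 32 of the 40 were below 0 against Ctrl and 37 against Vehicle. Counts are not fragments, so the counting error of the lowest genes is larger than their counts show.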
